A study of Caenorhabditis elegans with 11 samples.

Results

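The sperm genes of the nematode Caenorhabditis elegans examined here carry the symbols msp, msd, ssp, nspd or spe followed by a number. They were found by matching the gene symbols in the array annotation, and a gene with several transcript clusters (the sets of probes read as 1 transcript) was represented by the cluster of highest mean. This gave 68 genes from 69 clusters, of 26763 named genes on the array. There were 26 msp genes (major sperm protein), 3 msd genes (small proteins with a major sperm protein domain), 11 ssp genes (sperm-specific family, class P), 6 nspd genes (nematode-specific peptides, group D) and 22 spe genes (named for defective spermatogenesis).

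A hermaphrodite of this species makes sperm first, during the last larval stage, and then switches its germ line to oocytes, so sperm transcripts mark a particular window of germ-line development. Sperm of nematodes have no flagellum: they crawl, driven by the assembly of major sperm protein, which is stored in fibrous bodies attached to membranous organelles until the spermatids bud off. The same protein is released by sperm as the signal for oocyte maturation, whereas the spe genes act at separate steps from the transcription of the sperm programme through cell division and activation to fertilization.

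Whole wild-type N2 worms, the standard laboratory strain, were synchronised by bleaching and exposed as first-stage larvae, 16 to 18 h after hatching, to 25 uM of a betalain for 48 h at 20 °C in liquid S medium. Betalains are plant pigments built on betalamic acid: indicaxanthin is its conjugate with proline, phenylalanine-betaxanthin its conjugate with phenylalanine, and indoline carboxylic acid-betacyanin (indoline-betacyanin below) its conjugate with an indoline unit. Each betalain had 3 arrays, called independent trials 1 to 3, and the untreated control worms, of the same strain and described age, had 2. All worms were described as young adults 3 days after hatching, and the labels do not say what the arrays of a group or a trial had in common. The p-values therefore measure only the spread between these samples, which may be technical. Levels are log2 values after RMA (robust multi-array averaging, which corrects, normalizes and summarises Affymetrix probes), on which 1 unit is a doubling. They are not scaled for probe response, so a level is compared between arrays and not between genes.

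The arrays did not divide by group. The median level of the 68 sperm genes was 1.63 and 1.70 on indicaxanthin arrays 1 and 2 and 4.59 on array 3. It was 4.30, 4.16 and 3.53 on the phenylalanine-betaxanthin arrays, 1.69, 1.91 and 1.64 on the indoline-betacyanin arrays, and 1.76 and 1.57 on the control arrays. Indicaxanthin array 3 thus lay with phenylalanine-betaxanthin and away from the other 2 arrays of its own group, which overlapped control. The median over all named clusters was between 1.97 and 2.17 on every array. Over the 68 genes, the levels of indicaxanthin array 3 correlated at 0.98 to 0.99 with the phenylalanine-betaxanthin arrays and at 0.19 and 0.27 with arrays 1 and 2 of indicaxanthin, a description across genes that share each array. Results that rest on indicaxanthin array 3 are therefore given with and without it.

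**Figure D1:**
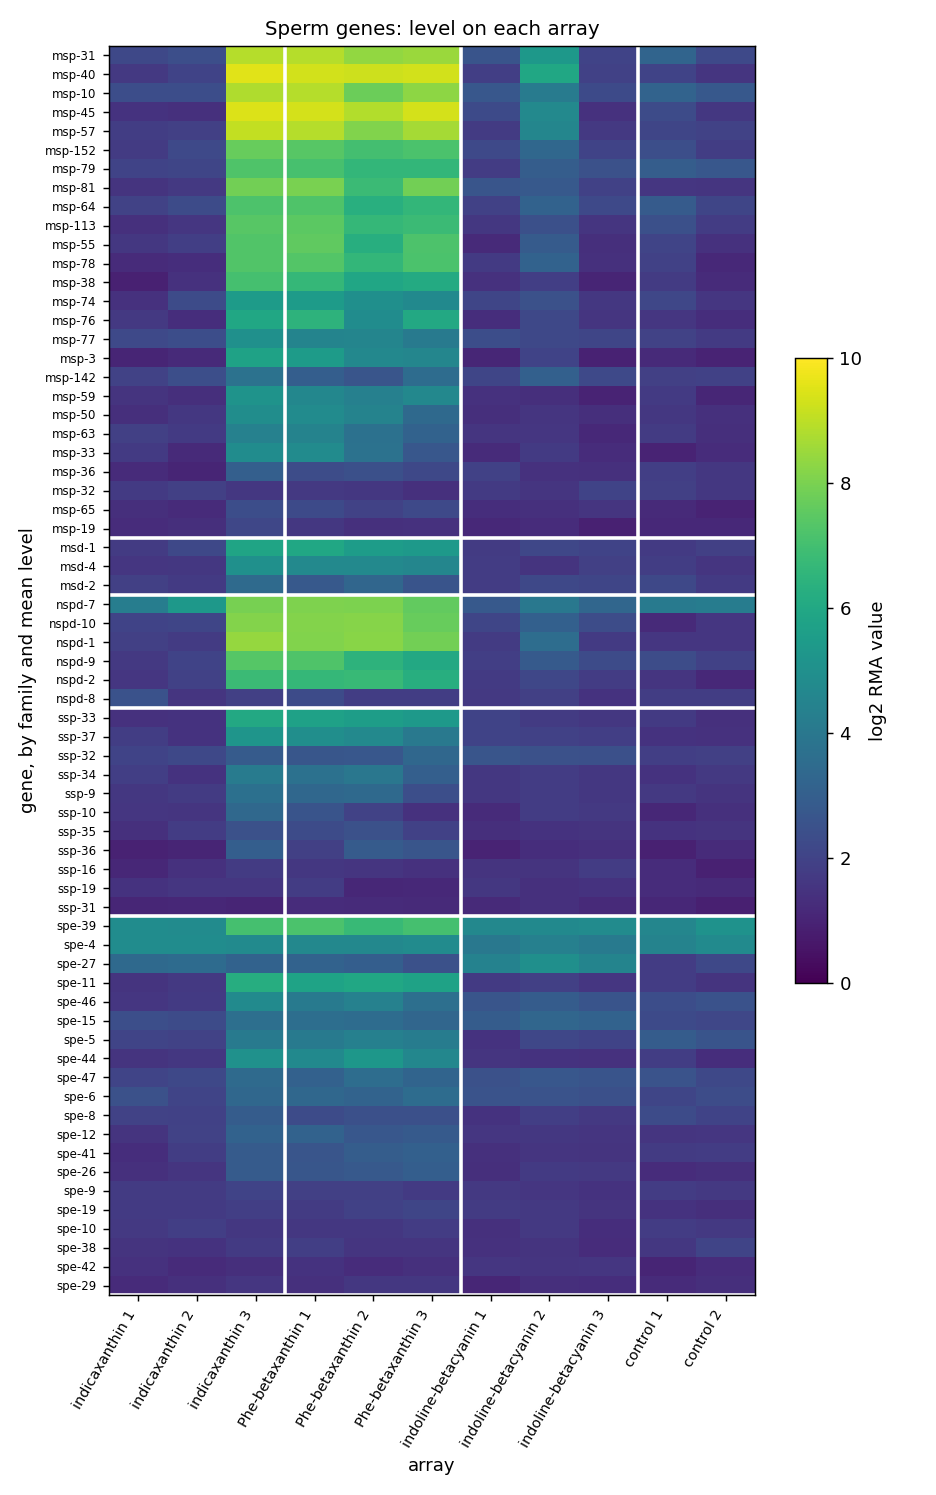
Level of 66 of the sperm genes (rows, grouped by family and ordered by mean level) on each of the 11 arrays (columns), as a log2 RMA value on a colour scale from 0 to 10; Phe-betaxanthin is phenylalanine-betaxanthin. Indicaxanthin array 3 and the 3 phenylalanine-betaxanthin arrays share the bright columns, while spe-27 is brightest on the indoline-betacyanin arrays.

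Other markers of the stage and of other cells moved with the sperm genes. The 6 genes for yolk proteins averaged 1.71, 1.75 and 10.09 with indicaxanthin, 10.04, 10.01 and 10.07 with phenylalanine-betaxanthin, 2.00, 3.17 and 1.67 with indoline-betacyanin, and 1.71 and 1.56 in control. The 19 oocyte and eggshell genes averaged 2.32, 2.31 and 8.46 with indicaxanthin, 8.31 to 8.50 with phenylalanine-betaxanthin, 2.35 to 2.92 with indoline-betacyanin, and 2.88 and 2.43 in control, and the 14 germ-line genes divided the arrays in the same way (6.32 to 6.47 on the high arrays, 1.93 to 2.26 on all others). The mean of the 18 moulting genes ran the other way, at 6.08, 5.79 and 3.74 with indicaxanthin, 3.96, 4.19 and 4.49 with phenylalanine-betaxanthin, 5.90 to 5.91 with indoline-betacyanin, and 6.12 and 6.22 in control. Their phenylalanine-betaxanthin arrays lay wholly below control for 14 genes and wholly above it for 3 (nas-37, bli-1 and bli-2). The 5 measured genes of the male tail and seminal fluid averaged between 1.71 and 2.12 on every array. Among them try-5, a protease of seminal fluid, was at 2.52, 3.35 and 2.78 with indoline-betacyanin, against 2.05 and 1.99 in control. On all betalain arrays lov-1 was below both controls, at 1.33 to 1.68 against 2.17 and 2.08. By contrast cil-7 was above both controls on all betalain arrays, at 1.54 to 1.82 against 1.32 and 1.46. The arrays with low yolk genes carry the same label of young adults as the rest. No gene of these lists was at 0 on any array, the lowest value being 1.01 (vit-1), but this does not show that each was detected. The part of oocyte production, stage or age in the differences below was not tested. In whole worms, fewer sperm-forming cells and less RNA per cell cannot be told apart.

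The major sperm protein genes were at their highest wherever sperm genes were high. The median of the 26 msp genes was 1.63, 1.68 and 6.51 with indicaxanthin, 6.56, 5.44 and 6.08 with phenylalanine-betaxanthin, 1.72, 2.46 and 1.56 with indoline-betacyanin, and 1.93 and 1.55 in control. The median of the 6 nspd genes was 1.94, 1.97 and 7.67 with indicaxanthin, 7.66, 7.38 and 6.93 with phenylalanine-betaxanthin, 1.80, 2.93 and 2.04 with indoline-betacyanin, and 1.70 and 1.71 in control. In both families indicaxanthin array 3 stood with phenylalanine-betaxanthin, and indoline-betacyanin array 2 was the highest of the arrays outside that set. The 3 msd genes followed the same division, with a median of 1.74, 1.69 and 5.02 for indicaxanthin, 4.61 to 4.71 for phenylalanine-betaxanthin, 1.77 to 2.14 for indoline-betacyanin, and 1.81 and 1.68 for control.

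The ssp and spe families differed less between arrays. The median of the 11 ssp genes was 1.46, 1.47 and 2.99 with indicaxanthin, 2.61, 2.71 and 2.40 with phenylalanine-betaxanthin, 1.61 to 1.72 with indoline-betacyanin, and 1.45 and 1.40 in control. The median of the 22 spe genes was 1.63, 1.78 and 3.04 with indicaxanthin, 2.88 to 2.91 with phenylalanine-betaxanthin, 1.59 to 1.68 with indoline-betacyanin, and 1.77 and 1.72 in control. Counted by gene, 3, 3 and 37 of the 68 genes exceeded a level of 4 on the indicaxanthin arrays, 36, 34 and 32 on the phenylalanine-betaxanthin arrays, 2, 9 and 3 on the indoline-betacyanin arrays, and 3 on each control array.

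**Figure D2:**
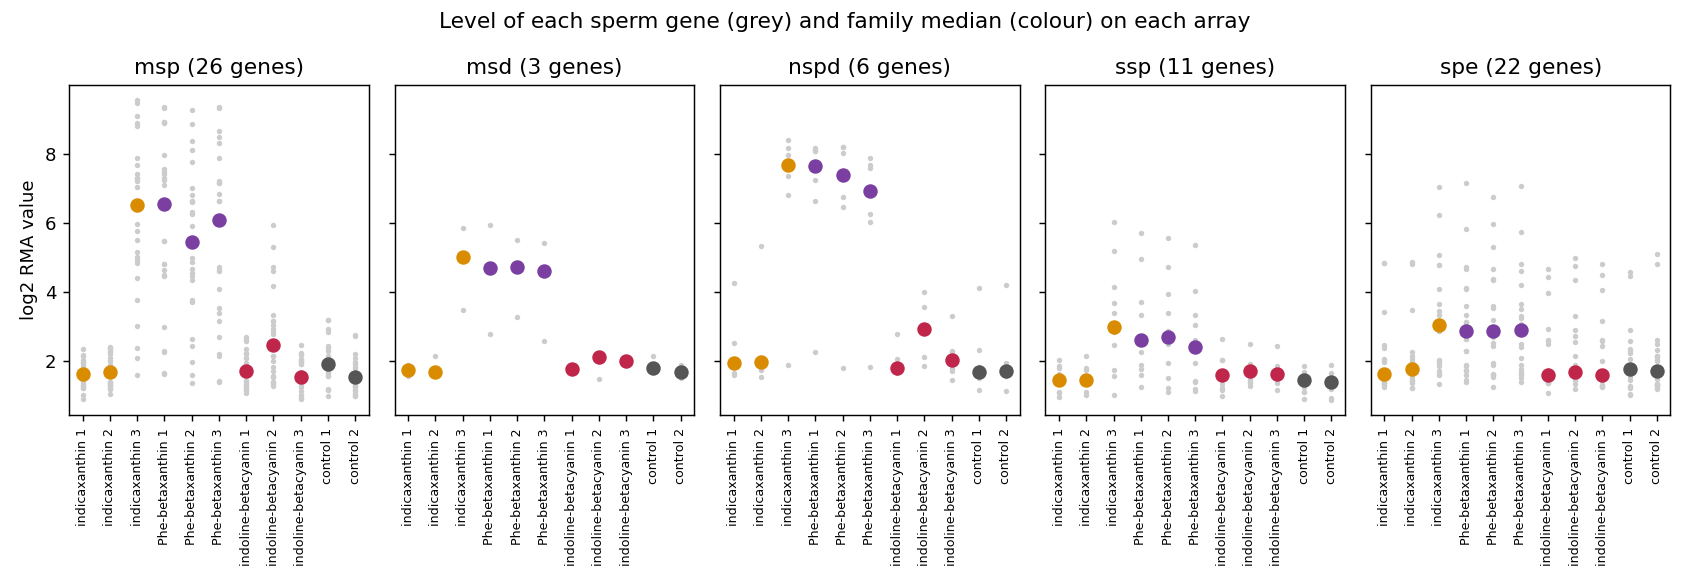
Log2 RMA level of each gene (grey points) and the family median (coloured points) on each array, in 1 panel per family; Phe-betaxanthin is phenylalanine-betaxanthin. The msp median reaches 6.51 on indicaxanthin array 3 and 5.44 to 6.56 with phenylalanine-betaxanthin, and stays between 1.55 and 2.46 on every other array.

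With phenylalanine-betaxanthin most sperm genes were higher than on the 2 control arrays. Of the 68 genes, 61 had a mean level above the 25th percentile of named clusters (1.523) and were tested. The 7 below it, among them msp-19, spe-29, spe-42 and ssp-31, did not exceed 2.11 on any array. Since the filter keeps a gene that is high in a single group, the 61 are not a neutral sample of the family. In limma's test (a linear model with moderated variances, fitted over all 20291 clusters above the filter, Benjamini-Hochberg adjusted p under 0.05) 43 of the 61 were higher with phenylalanine-betaxanthin than in control and no gene was called lower, while 22.3% of all clusters tested were called higher and 22.3% lower. The median difference was 2.53 log2 units over the 61 genes, beside -0.05 over all clusters tested. Arrays of the 2 groups did not overlap for 55 of the 61, all above control, against 34.9% of all clusters above and 40.5% below. The 3 genes with a negative difference, msp-32, spe-10 and spe-38, had adjusted p-values of 0.365 to 0.809. By family, 21 of 25 msp, 2 of 3 msd, 5 of 6 nspd, 4 of 8 ssp and 11 of 19 spe genes tested were higher.

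This count leans on single arrays. It was 54 of 61 without indicaxanthin array 3, where 28.5% of all clusters were called higher. Leaving out either control array left 1 array in that group, whose spread is then assumed to be that of the other groups. The count from those fits is not given here. Without phenylalanine-betaxanthin array 1, 2 or 3 the count was 2, 0 and 11. In those fits 12.9%, 12.7% and 24.2% of all clusters were called in either direction.

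Among the major sperm proteins, msp-40 had levels of 9.31, 9.25 and 9.31 with phenylalanine-betaxanthin, against 2.03 and 1.53 in control. It was 1.65, 2.01 and 9.55 with indicaxanthin and 1.86, 5.94 and 1.93 with indoline-betacyanin, so that 1 array of each of those groups stood far above the others. The difference of phenylalanine-betaxanthin from control was 7.51 (SE 2.18, limma adjusted p = 0.0258). Across msp genes that were higher the difference spanned 1.05 (msp-65) to 7.51 (msp-40). Others of this size were msp-45 (difference 7.22), msp-57 (6.52), msp-81 (5.99) and msp-31 (5.88), the last at 8.90, 8.36 and 8.49 with phenylalanine-betaxanthin and 3.20 and 2.20 in control. The msp genes are near-identical copies whose probes may be shared, so the value of a single msp gene is uncertain and their patterns are not separate measurements.

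Not every msp gene showed this division. msp-32 stayed between 1.39 and 2.03 on all 11 arrays, and its difference from control was -0.21 (SE 0.18, adjusted p = 0.365). Its mean of 1.70 was close to the filter level of 1.523, and whether its probes detect the transcript was not tested. The neighbour of msp-32 in the RefSeq gene order, msp-33, was at 4.81, 3.78 and 2.70 with phenylalanine-betaxanthin and 0.99 and 1.29 in control. The groups did not overlap for msp-33, but its difference of 2.63 (SE 0.98) missed the threshold (adjusted p = 0.0556). msp-36 and msp-142 also missed it, with differences of 0.58 and 1.15.

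Among the nspd genes, short peptides restricted to nematodes, nspd-10, nspd-7 and nspd-2 had the smallest p-values of the 61 genes in this comparison. nspd-10 had levels of 8.16, 8.19 and 7.67 with phenylalanine-betaxanthin, against 1.18 and 1.59 in control. With indicaxanthin it was at 1.99, 2.10 and 8.16, and with indoline-betacyanin at 2.07, 3.05 and 2.31. Even the low arrays of both betalains thus lay above the 2 control arrays analysed here, but not above the further control level derived below. The difference of phenylalanine-betaxanthin from control was 6.63 (SE 1.55, adjusted p = 0.0171). nspd-7 differed by 3.74 (SE 0.88, adjusted p = 0.0173), from a higher base of 4.12 and 4.20 in control. nspd-8 stayed between 1.46 and 2.53 on all arrays.

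Of the smaller sperm-specific proteins, msd-1 was at 5.95, 5.51 and 5.42 with phenylalanine-betaxanthin and 1.68 and 1.90 in control, a difference of 3.84 (SE 0.99, adjusted p = 0.0203). ssp-33 was at 5.71, 5.56 and 5.37 with phenylalanine-betaxanthin and 1.70 and 1.39 in control. Of the ssp genes, ssp-33, ssp-34 and ssp-37 were higher with adjusted p-values of 0.0254 to 0.0386, and ssp-32 rose by 1.03 (SE 0.28, adjusted p = 0.0217). The levels of ssp-10 and msd-2 differed by 0.74 and 0.98, which did not pass the test.

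The spe genes were read by the step at which they act. At the start of the pathway, spe-44, a SAND-domain regulator that turns on sperm genes, was at 4.73, 5.30 and 4.62 with phenylalanine-betaxanthin and 1.81 and 1.31 in control. With indicaxanthin it was at 1.51, 1.62 and 5.07 and with indoline-betacyanin at 1.54, 1.46 and 1.44, so that indoline-betacyanin array 2, where some msp genes were higher, had no higher level of it. Its difference between phenylalanine-betaxanthin and control was 3.32 (SE 0.90, adjusted p = 0.0222). At the other end, spe-11, which sperm supply to the embryo, was at 5.81, 5.96 and 5.75 with phenylalanine-betaxanthin and 1.76 and 1.49 in control (difference 4.21, SE 1.17, adjusted p = 0.0232).

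In the group that builds the fibrous bodies and membranous organelles, 2 of 5 genes were higher. One was spe-39, which acts in vesicle sorting and is also used outside sperm. It had a level above 4.5 on every array: 7.16, 6.75 and 7.06 with phenylalanine-betaxanthin, against 4.57 and 5.09 in control (difference 2.16, SE 0.58, adjusted p = 0.0215). spe-5, a subunit of the proton pump that acidifies vesicles, was at 4.12, 4.36 and 4.20 with phenylalanine-betaxanthin and 2.90 and 2.61 in control. Its groups did not overlap, and its difference of 1.48 (SE 0.55) missed the threshold at an adjusted p of 0.0557. spe-4, a presenilin of the membranous organelles, was at 4.66, 4.67 and 4.82 with phenylalanine-betaxanthin and 4.46 and 4.80 in control (difference 0.09, 95% interval -0.28 to 0.45). It did not share the division of the arrays. spe-10, a palmitoyltransferase, was under 2 on all arrays.

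Both genes of spermatocyte division were higher: spe-26, a kelch-like protein, by 1.52 (SE 0.38) and spe-15, a myosin that sorts organelles into spermatids, by 1.31 (SE 0.37). Of the 7 tested genes of sperm activation, the change by which round spermatids become crawling sperm, 4 were higher, namely spe-12, spe-19, spe-27 and spe-6. The differences were 1.33 for spe-12, a membrane protein of the hermaphrodite activation pathway, 1.15 for spe-6, a casein kinase-like enzyme, 0.91 for spe-27 and 0.53 for spe-19. Among genes that act at fertilization, 1 of 3 tested was higher: spe-41, a TRP-family calcium channel, by 1.13 (SE 0.38, adjusted p = 0.0379). spe-9 and spe-38, further sperm surface proteins, differed by 0.10 (95% interval -0.22 to 0.43) and -0.19 (-0.58 to 0.21). The median of the 5 fertilization genes, untested ones included, was 1.45 to 1.94, on every array below the median of all named clusters. A difference near 0 at such low levels does not show that a gene was expressed and unchanged.

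**Figure D3:**
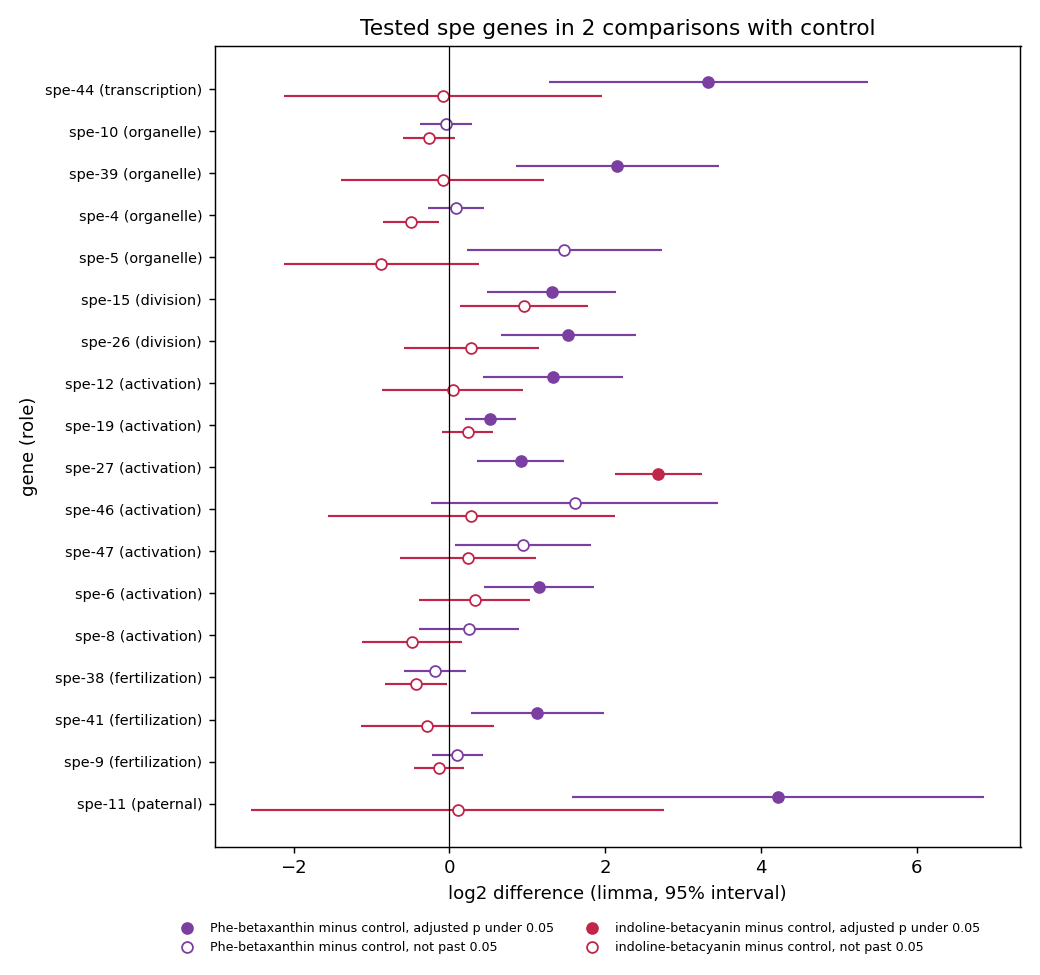
Log2 difference from control (points) with its 95% limma interval (lines) for 18 of the tested spe genes, listed by role, with phenylalanine-betaxanthin in purple and indoline-betacyanin in red; filled points have an adjusted p under 0.05. With phenylalanine-betaxanthin 10 of them were higher, from spe-19 at 0.53 to spe-11 at 4.21, and with indoline-betacyanin only spe-27 was, at 2.68.

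The authors' deposited tables bear on the control level of these genes. In the authors' deposited tables for phenylalanine-betaxanthin and indoline-betacyanin, the sum of squares of a sperm gene was 1.5 times its squared log2 ratio, the relation that 3 arrays per group give, whereas 2 control arrays were analysed here. In the authors' deposited table for phenylalanine-betaxanthin, the ratio to control was above 1 for 65 of the 68 genes, and the authors' unadjusted p was under 0.05 for 6, with a median of 0.129. Setting the mean of the treated arrays against the ratio in the authors' deposited table gives the level that the third control would need. This takes the treated and control values behind those ratios to be the ones used here. Were that exact, and the third control the same in both, the 2 deposited tables would imply 1 level. Between the 2 deposited tables the implied level differed by a median of 0.35 over the 68 genes, and by up to 1.63 (msp-55). The implied levels are therefore approximate. This implied level was over 1 unit above both control arrays for 43 of the 68 genes by both tables: 22 of 26 msp, 5 of 6 nspd, 2 of 3 msd, 6 of 11 ssp and 8 of 22 spe. For msp-40 it was 10.13 by the authors' deposited table for phenylalanine-betaxanthin and 9.69 by that for indoline-betacyanin, beside 2.03 and 1.53 on the 2 control arrays, and for spe-44 it was 4.98 and 5.22. For nspd-10 it was 7.72 and 9.17, above all indoline-betacyanin arrays and above indicaxanthin arrays 1 and 2. For spe-27 the authors' deposited tables implied 3.05 and 2.77, above both control arrays (1.77 and 2.16) and inside the range of the phenylalanine-betaxanthin arrays (2.50 to 3.13). For spe-4 the authors' deposited tables implied 4.55 and 4.46, beside 4.46 and 4.80 on the control arrays. In the authors' deposited table for indicaxanthin, which lists 8 of the 68 genes, the sum of squares was 1 times the squared log2 ratio, the relation that 2 arrays per group give, and it does not say which arrays these were. That further control is not analysed here, and the differences from control above are those from the 2 arrays.

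**Figure D4:**
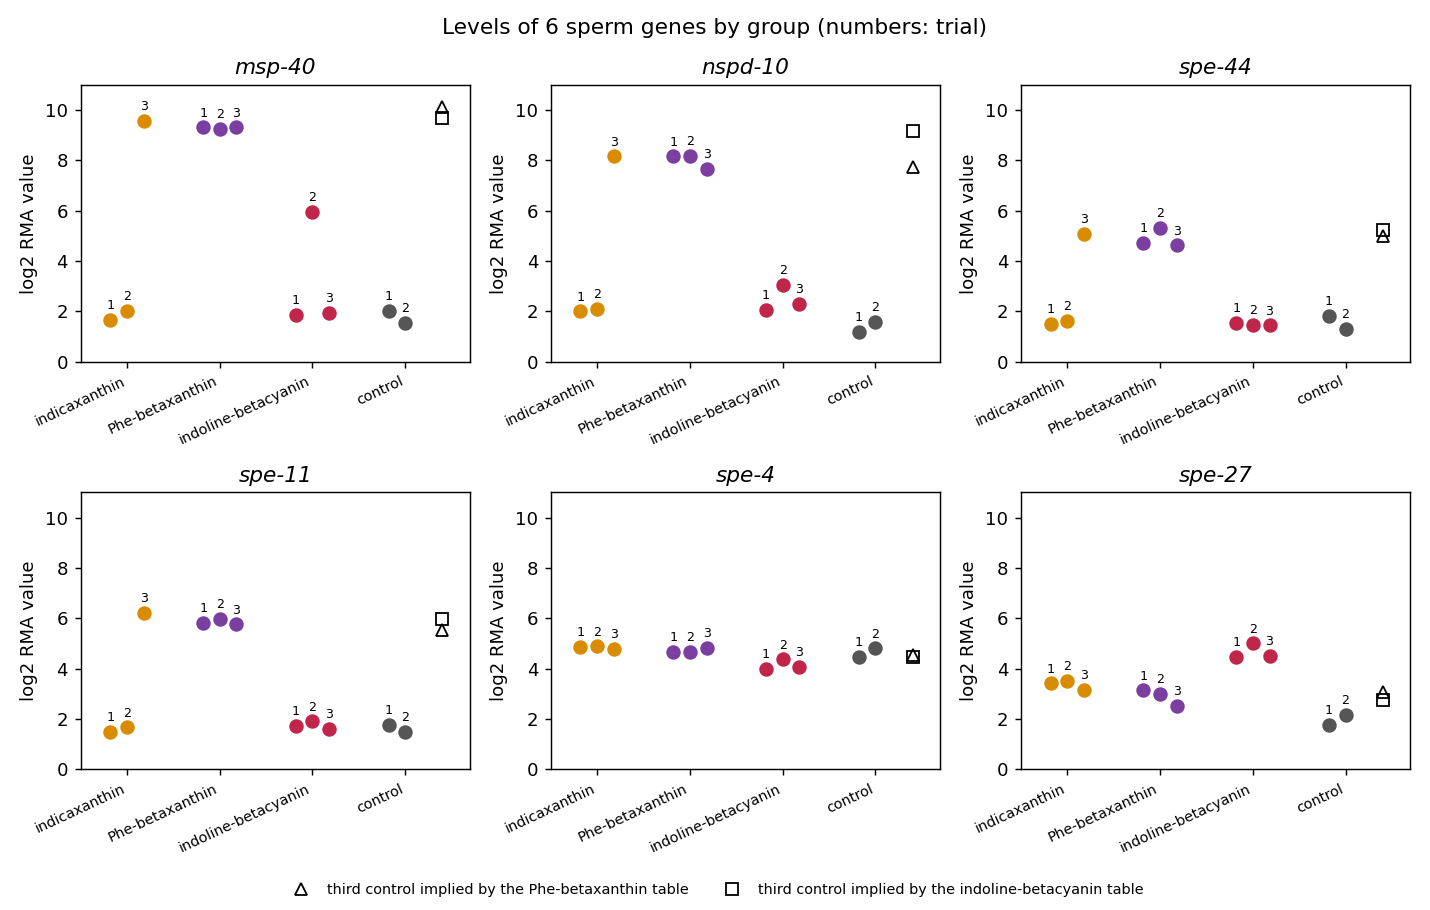
Log2 RMA level of 6 sperm genes on each array (coloured points, numbered by trial), with the level that the third control would need by the authors' deposited tables for phenylalanine-betaxanthin (open triangles) and indoline-betacyanin (open squares); Phe-betaxanthin is phenylalanine-betaxanthin. For msp-40 the implied control lies at 10.13 and 9.69, far above the measured controls of 2.03 and 1.53, for spe-27 it lies at 3.05 and 2.77, above both controls, and for spe-4 it lies at 4.55 and 4.46, close to them.

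Indicaxanthin, the proline conjugate, gave a single call. Of the 61 genes, 1 was higher than control by limma's test (0.315% of all clusters were called higher and 5.88% lower) although the median difference was 1.11, beside 0.05 over all clusters. The difference came from array 3, which was above arrays 1 and 2 for 60 of the 68 genes, by more than 1 unit for 48. msp-45 was at 1.47, 1.40 and 9.47 with indicaxanthin, against 2.29 and 1.63 in control, the widest gap between array 3 and the mean of arrays 1 and 2 (8.03). Compared with the mean of the phenylalanine-betaxanthin arrays, array 3 was higher by a median of 0.29 (range -0.19 to 1.39) and exceeded all 3 of them for 36 of the 68 genes. Without array 3, the median difference of indicaxanthin from control was 0.03 and 2 genes were called. These were spe-27, higher by 1.49, and spe-46, a membrane protein that acts in activation, lower by 0.80 (SE 0.22, limma adjusted p = 0.0370), while 3.04% of all clusters were higher and 7.45% lower.

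The gene called with indicaxanthin was spe-27, a small soluble protein needed for hermaphrodite sperm to respond to the activation signal. It was at 3.41, 3.49 and 3.16 with indicaxanthin, 3.13, 3.00 and 2.50 with phenylalanine-betaxanthin, 4.45, 4.998 and 4.49 with indoline-betacyanin, and 1.77 and 2.16 in control. With the 2 control arrays analysed here, the 4 groups did not overlap: indoline-betacyanin was highest, indicaxanthin next with array 3 close to arrays 1 and 2, then phenylalanine-betaxanthin, and control lowest. This order is not that of nspd-10 or of the msp genes, so the 2 genes named as markers of this family, nspd-10 and spe-27, ran differently over the arrays. The difference from control was 1.39 for indicaxanthin (SE 0.25, 95% interval 0.83 to 1.96, adjusted p = 0.00859), 0.91 for phenylalanine-betaxanthin (SE 0.25, adjusted p = 0.0222) and 2.68 for indoline-betacyanin (SE 0.25, 95% interval 2.12 to 3.25, adjusted p = 0.000124). These comparisons share the 2 control arrays. The call for indicaxanthin was lost without control array 1 (adjusted p = 0.108). The authors' deposited table for indicaxanthin, whose sum of squares is that of 2 arrays per group, gave spe-27 a ratio of 3.32 with an unadjusted p of 0.00771. The authors' deposited table for phenylalanine-betaxanthin gave a ratio of 1.465 with an unadjusted p of 0.0780, and that for indoline-betacyanin a ratio of 5.34 with an unadjusted p of 0.00237.

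With indoline-betacyanin most sperm genes lay near the 2 control arrays analysed here. Of the 61, spe-27 was the 1 gene called higher and no gene was called lower, by limma's test, against 7.97% of all clusters called higher and 9.37% lower. At an unadjusted p under 0.05 there were 5 genes, beside 28.2% of all clusters. The median difference was 0.15, beside 0.02 over all clusters. In the authors' deposited table for indoline-betacyanin, by contrast, the ratio to control was above 1 for 15 of the 68 genes. Arrays of the groups did not overlap for 15 of 61 genes above control and 8 below, against 31.1% and 29.2% of all clusters. Leaving out indicaxanthin array 3, which narrows the shared spread, gave 4 higher and 3 lower, against 17.1% and 18.2% of all clusters. The higher genes were then spe-27, spe-15 (0.96, adjusted p = 0.000494), nspd-10 (1.10, adjusted p = 0.00783) and ssp-32 (0.64, adjusted p = 0.0226). In the authors' deposited table for indoline-betacyanin the ratio was 1.24 for spe-15 and 1.138 for ssp-32. There nspd-10 went the other way, with a ratio of 0.354, so its rise holds only against the 2 control arrays analysed here.

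The 3 genes called lower without that array were spe-5, spe-8 and spe-4. spe-5 was at 1.48, 2.14 and 2.02 with indoline-betacyanin, against 2.90 and 2.61 in control (difference -0.87, adjusted p = 0.00438 without indicaxanthin array 3 and 0.374 with it). spe-8, a tyrosine kinase of the activation pathway, was at 1.48, 1.87 and 1.64, against 2.29 and 2.00 in control (-0.48, adjusted p = 0.0294 without the array and 0.333 with it). spe-4 was at 3.99, 4.36 and 4.06 with indoline-betacyanin and 4.46 and 4.80 in control (-0.49, adjusted p = 0.0311 without the array and 0.0687 with it). In all 3 the indoline-betacyanin arrays lay wholly below control. In the authors' deposited table for indoline-betacyanin these 3 genes and spe-27 were the 4 of 68 with an unadjusted p under 0.05, with ratios of 0.435 for spe-5, 0.756 for spe-8 and 0.740 for spe-4.

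On 1 array of indoline-betacyanin, trial 2, 21 of the 26 msp genes were above the other 2 arrays. msp-40 exceeded the mean of arrays 1 and 3 by 4.04, the largest such gap of all 20291 clusters tested. Among the sperm genes msp-31 (3.03), msp-57 (2.90) and msp-45 (2.87) came next. msp-31 itself was at 2.58, 5.32 and 1.99 on the 3 arrays. A gap above 1 was found for 9 of 26 msp genes and 1 of 6 nspd genes (nspd-1, 1.85), in none of the msd, ssp and spe genes, and in 0.389% of all clusters tested. Of the 6 yolk genes, vit-2 was at 2.90, 5.15 and 2.48 on the 3 arrays, vit-6 at 1.79, 4.96 and 2.27, and vit-5 at 1.59, 2.94 and 1.62. Smaller gaps were found for vit-1 (1.56, 1.91 and 1.01) and vit-4 (2.06, 2.26 and 1.38), and vit-3 was highest on array 1 (2.09, 1.78 and 1.29). On array 2 spe-44 and spe-11 were at 1.46 and 1.90. Without this array 36 of the 43 calls between indoline-betacyanin and phenylalanine-betaxanthin remained, 35 lower and 1 higher, beside 18.3% and 18.6% of all clusters.

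**Figure D5:**
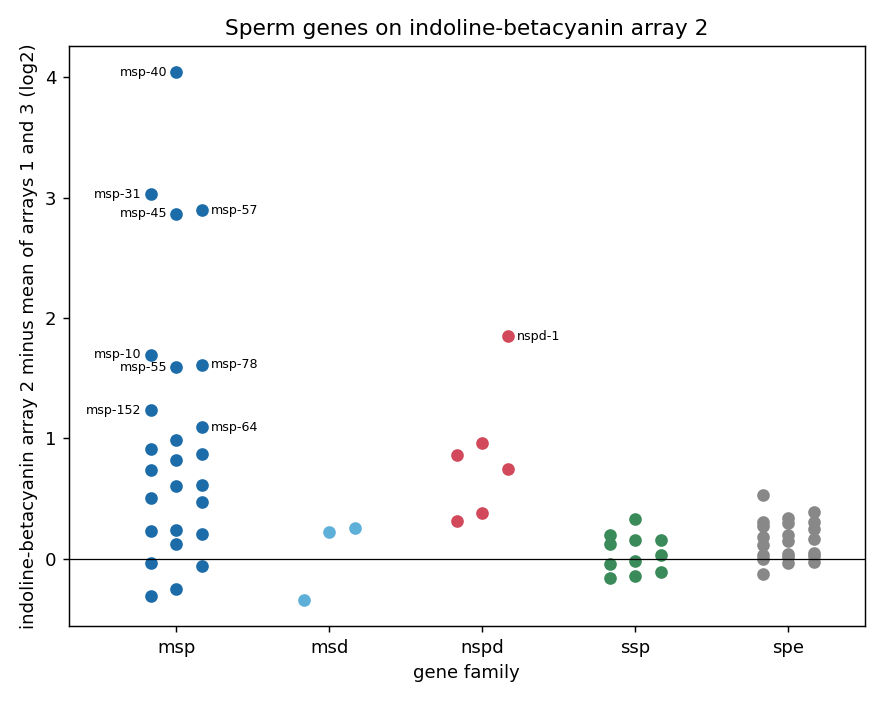
Level of each sperm gene on indoline-betacyanin array 2 minus the mean of arrays 1 and 3 (vertical, log2 difference), by family (horizontal; points are spread sideways by rank only). Each point is 1 gene, and those above 1 are named. The 9 msp genes and nspd-1 that exceed 1 are led by msp-40 at 4.04, and no msd, ssp or spe gene does.

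The 3 pairs of betalains were compared at the same dose and time. Indoline-betacyanin differed most from phenylalanine-betaxanthin: 42 of the 61 genes were lower and 1 higher, against 23.8% of all clusters lower and 23.5% higher, with a median difference of -2.36 over the 61, beside 0.03 over all clusters. The groups did not overlap for 53 genes below and 1 above, against 32.5% and 34.3% of all clusters. Lower were 20 of 25 msp, 2 of 3 msd, 5 of 6 nspd, 4 of 8 ssp and 11 of 19 spe genes, and the gene higher was spe-27 (1.77, SE 0.22, 95% interval 1.27 to 2.27, adjusted p = 0.000711). nspd-7 was at 2.80, 4.01 and 3.31 with indoline-betacyanin and 8.08, 8.02 and 7.60 with phenylalanine-betaxanthin, a difference of -4.52 (SE 0.79, adjusted p = 0.00287). spe-5 fell by 2.35 (SE 0.50, adjusted p = 0.00612), spe-39 by 2.24 (SE 0.52, adjusted p = 0.00829) and spe-11 by 4.11 (SE 1.05, adjusted p = 0.0118). No control array enters these differences. Without indicaxanthin array 3, 51 genes were lower and 1 higher, against 29.3% and 29.7% of all clusters.

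Between indoline-betacyanin and indicaxanthin, 1 gene was higher and 1 lower, against 9.78% and 4.42% of all clusters. spe-27 was higher by 1.29 (SE 0.22, 95% interval 0.79 to 1.79, adjusted p = 0.00538) and spe-4 was lower, at -0.70 (SE 0.14, 95% interval -1.03 to -0.38, adjusted p = 0.0124). spe-4 was at 3.99, 4.36 and 4.06 with indoline-betacyanin and 4.86, 4.88 and 4.78 with indicaxanthin, where array 3 again lay beside the others. Without indicaxanthin array 3, spe-27, spe-15 and spe-46 were higher and spe-4 and nspd-7 lower, and 14.4% of all clusters were higher and 13.5% lower. nspd-7 was then lower by 1.42, with 4.26 and 5.33 on indicaxanthin arrays 1 and 2.

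Phenylalanine-betaxanthin and indicaxanthin, conjugates of 2 amino acids, gave no called sperm gene and no called cluster at all (0% of 20291) by limma, although 32 of the 61 genes had an unadjusted p under 0.05, beside 32.7% of all clusters. The interval for nspd-10 ran from 0.78 to 7.07 around a difference of 3.92, an interval that takes in large differences. With array weights, which down-weight deviating arrays, 52 genes were called, beside 55.7% of all clusters. Without indicaxanthin array 3, 52 were higher with phenylalanine-betaxanthin and 1 was lower (26.6% and 28.5% of all clusters), the lower one being spe-27 by 0.58 (adjusted p = 0.0470).

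Sperm genes outside the 5 families were counted in the same way. Of 10 further spermatid genes, 7 were higher with phenylalanine-betaxanthin than in control (22.3% of all clusters) and 5 were lower with indoline-betacyanin than with phenylalanine-betaxanthin (23.8% of all clusters). gsp-3, a phosphatase of sperm, was at 4.91, 4.40 and 5.37 with phenylalanine-betaxanthin and 2.30 and 1.61 in control (2.94, SE 0.92, adjusted p = 0.0314), whereas gsp-4 and fer-1, a ferlin that fuses the membranous organelles, stayed between 1.64 and 2.17 on all arrays. An exception to the division was zipt-7.1, a zinc transporter that acts in sperm activation. It was at 3.21, 3.16 and 7.18 with indicaxanthin, 7.16, 6.90 and 6.95 with phenylalanine-betaxanthin, 6.22, 6.31 and 6.15 with indoline-betacyanin, and 3.59 and 3.18 in control. All 3 indoline-betacyanin arrays were high for it, as they were for spe-27, but its difference from control, 2.84 (SE 1.01), did not pass the test (adjusted p = 0.0931).

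Of 14 regulators of the choice between sperm and oocyte fate, 8 were higher with phenylalanine-betaxanthin than in control (22.3% of all clusters) and 9 were lower with indoline-betacyanin than with phenylalanine-betaxanthin (23.8% of all clusters). fbf-2 was among the 9 but not the 8. Its level was 1.62, 1.63 and 2.11 with phenylalanine-betaxanthin, below 2.24 and 2.19 in control (-0.43, limma adjusted p = 0.0709). With indoline-betacyanin it was at 1.35, 1.36 and 1.18, lower than control by limma's test (-0.92, adjusted p = 0.00615). fog-2, needed for hermaphrodites to make sperm, was at 6.73, 6.42 and 6.21 with phenylalanine-betaxanthin and 1.49 and 1.56 in control (4.93, SE 1.26, adjusted p = 0.0198). fog-3, which commits germ cells to sperm, stayed between 1.42 and 2.29 and differed by 0.18 (SE 0.20, adjusted p = 0.495). fog-1, its partner in that step, was at 3.10, 2.86 and 2.40 with phenylalanine-betaxanthin and 1.55 and 1.66 in control, a difference of 1.18 that missed the threshold (adjusted p = 0.0729). Another 13 genes carry a symbol of these families in RefSeq but not in the array annotation, and 7 of the 10 tested were higher with phenylalanine-betaxanthin than in control, beside the same 22.3%. Among them spe-18, which acts in fibrous body assembly, was at 6.13, 6.40 and 6.34 with phenylalanine-betaxanthin and 2.21 and 2.27 in control.

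Some sperm genes lie in groups along the chromosomes. In the RefSeq gene order, 25 of the 68 genes had another of the 68 within 5 genes: 15 of 26 msp, 2 of 3 msd, 3 of 6 nspd, 5 of 11 ssp and none of the 22 spe genes. msp-31 and msp-152 are such neighbours and both were higher with phenylalanine-betaxanthin, by 5.88 and 5.08, as were msp-10, msp-81 and nspd-2, by 5.33, 5.99 and 5.21. The neighbours msp-32 and msp-33, described above, differed from each other.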

How the data were processed

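The deposited log2 values of 11 Affymetrix arrays were used; RMA was applied by the authors, per the submitters' processing notes. The authors' deposited tables gave, per cluster, a ratio, an unadjusted p-value and sums of squares (a score), read as descriptions. Groups came from the sample titles, and the number of per-sample columns not used was 0.

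Of 29317 clusters, 27055 were named and 26811 of these matched RefSeq, which served for names and gene order. No position is printed, since no source used here names the genome build. limma 3.58.1 in R 4.3.3 (lmFit, eBayes) was fitted to all 11 arrays and 20291 clusters (7 residual and 1.93 prior degrees of freedom) and tested on simulated data; 6 comparisons were adjusted separately. The alternatives were each array left out, the trial number as a block, other filters, scalings and variance settings. The number of arrays limits precision. Named genes were the 2 markers, the highest member per family and role, and those with the smallest p-values. Members, lists and tests were chosen with earlier results of these data known. Protein sequences were not used, so identity between msp genes was not computed. Some genes are counted but not reported here singly.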

Additional observations from a re-analysis of the deposited data

How the results depend on the processing

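The 47 named genes gave 282 differences, of which 72 were called. Under the alternatives these 282 had 5556 values, with no reversed call. There were 275 lost calls, all among the 72, and 161 new calls, all among the rest. Leaving out single arrays gave 0 to 2 sperm genes past the threshold for indicaxanthin against control, 0 to 54 for phenylalanine-betaxanthin, 1 to 7 for indoline-betacyanin, 1 to 5 for indoline-betacyanin against indicaxanthin, 21 to 52 against phenylalanine-betaxanthin (24 and 22 without its arrays 1 and 3; 21 without phenylalanine-betaxanthin array 1) and 0 to 53 for phenylalanine-betaxanthin against indicaxanthin. The counts of 24, 22 and 21 stood beside 37.5%, 36.7% and 35.9% of all clusters. Shares of all clusters in this section take calls in either direction. Against control, the lowest count for indicaxanthin came without control array 1, where 1 control array was left. Indicaxanthin had 2 without its array 3 (10.5% of all clusters). Indoline-betacyanin had 7 without indicaxanthin array 3 (35.4%) and 2 without its own array 2 (12.6%). Indoline-betacyanin against indicaxanthin had 5 without indicaxanthin array 3 (27.8%) and 1 without indoline-betacyanin array 1 or 3 (8.4% and 8.27%). With the trial number as a replicate block, 6 genes passed (18% of all clusters) for phenylalanine-betaxanthin against control in place of 43. Deviations from the group mean were also compared over all clusters tested. Those of same-numbered arrays correlated at -0.292 to 0.101, with 1 of 15 pairs over 0.1. Deviations within groups of 2 or 3 arrays depend on each other, so they do not settle whether the number pairs the arrays. For indoline-betacyanin against control (1 gene), no filter and a further quantile normalization gave 2 (14.2% and 17.4% of all clusters). Array weights gave 8 (36.8%) and the compared groups alone 7 (36%). Against indicaxanthin (2 genes), array weights gave 6 (27.5%), trended and robust variances 1 (12.7%) and the compared groups alone 1 (4.7%). Phenylalanine-betaxanthin against indicaxanthin had 52 with array weights (55.7%) in place of 0, and indicaxanthin against control 0 with the compared groups alone (1.04%). Centring each array moved the median of all clusters by 0.166, 0.177 and 0.179 for indicaxanthin, phenylalanine-betaxanthin and indoline-betacyanin against control. The cause of these changes was not tested.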
